A study of Mus musculus with 32 samples.

Results

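CXC chemokines are small secreted proteins that guide leukocytes, and this account follows 9 of them, Cxcl1, Cxcl2, Cxcl9, Cxcl10, Cxcl11, Cxcl12, Cxcl13, Cxcl14 and Cxcl16, through microglia and macrophages of mouse brains with glioma. They were looked up by symbol among the 17586 genes of the deposited expression table. Of the 9 genes, 7 had a row; Cxcl1 and Cxcl14 matched no row under their current or older RefSeq symbols and were not analysed here. RNA came from sorted cells in 32 libraries, 8 for each of 4 populations. Differentiated macrophages, undifferentiated macrophages and tumour microglia came from brains with GL-261 tumours, a transplantable glioma line of C57BL/6 mice. Those brains belonged to chimeric mice, labelled as Pep3 into WT, with C57BL/6J recipients (WT below), or as WT into Pep3, with Pep3/CD45.1 recipients. The labels give no treatment, and GL-261 cells grown in culture were implanted intracranially. Normal microglia came from WT or Pep3/CD45.1 mice labelled Nil, with no implanted cells. Each population held 4 libraries from each recipient strain. How the chimeras were made, the ages of the mice, the sorting gates and whether libraries came from separate animals are not stated in the labels, so p-values measure the spread between libraries, part of which may be technical.

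CXC chemokines sort into families by the receptor they engage. Cxcl1 and Cxcl2 carry the ELR motif, bind Cxcr2 and draw neutrophils. Cxcl9, Cxcl10 and Cxcl11 are induced by interferons and bind Cxcr3 on activated T cells and NK cells. Cxcl12 binds Cxcr4 and the scavenging receptor Ackr3 (Cxcr7 in the table) and holds haematopoietic cells in their niches, while Cxcl13 binds Cxcr5 and organises B cells. Cxcl16 is made as a membrane protein, binds Cxcr6 and can be shed by metalloproteases. In C57BL/6J mice Cxcl11 is a special case: the RefSeq annotation of that strain's genome lists it as a transcribed pseudogene, so its transcript is described here with no statement about a protein.

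The deposited values are signed scores of unstated scale that run from -6.50 to 6.92. Every gene is centred on 0 across the libraries of each recipient strain, and so across all libraries. A recipient strain difference averaged over the populations is therefore not in the scores. A difference below is a fitted difference between population means in units of that scale, given ± SE for 8 libraries against 8, and no fold change or expression level can be had from it. Adjusted p-values are from limma over all 17586 genes, with calls made below 0.05. Sequencing depth is unknown. The table holds no variation along 11 directions of the samples, and 9 libraries kept under 50% of their own variation, namely 28 and 31 of differentiated macrophages, 8 and 29 of undifferentiated macrophages, 27 of tumour microglia and 1, 10, 18 and 26 of normal microglia. Scores of these 9 are partly combinations of other libraries, so a lack of overlap between groups rests on fewer than 8 independent values each. Normal microglia carry experiment numbers of their own in the labels, 1 and 2, and all tumour populations carry 3 and 4, so experiment and tumour cannot be told apart in any comparison with normal microglia. All tumour populations also came from mice labelled as chimeras and all normal microglia from mice labelled Nil. Chimerism therefore cannot be told apart from tumour in those comparisons. In sorted bulk RNA, a change in the share of a cell type and a change in RNA per cell cannot be told apart either.

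The promoter windows of 4 of the genes are shown. Cxcl10, Cxcl9 and Cxcl2 were higher in both macrophage populations than in normal microglia, while Cxcl13 was not called in those comparisons. RefSeq windows on build GRCm38.p6 were given for 5 of the 7 genes. That of Cxcl12, which was also called higher in both macrophage populations, was searched but is not printed. Each line below is the 250 bases upstream of the annotated start, 5′ to 3′ on the gene's strand, in lower case, with matches to 3 motifs in capitals. The motifs were the 10-base NF-kappaB consensus, the interferon-stimulated response element (ISRE) as GAAA, any 2 bases and GAAA again, and the gamma-activated site (GAS) written as TTCNNNGAA, each on both strands. Cxcl10 lies on the minus strand at chr5:92348890-92349139, Cxcl9 on the minus strand at chr5:92328080-92328329, Cxcl2 on the plus strand at chr5:90903649-90903898 and Cxcl13 on the plus strand at chr5:95956689-95956938.
Cxcl10: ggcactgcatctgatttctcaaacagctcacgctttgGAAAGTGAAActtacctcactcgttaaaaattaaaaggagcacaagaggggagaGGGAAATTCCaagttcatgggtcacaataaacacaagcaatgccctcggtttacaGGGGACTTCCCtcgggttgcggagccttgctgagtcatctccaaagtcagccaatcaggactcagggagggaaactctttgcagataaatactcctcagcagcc
Cxcl9: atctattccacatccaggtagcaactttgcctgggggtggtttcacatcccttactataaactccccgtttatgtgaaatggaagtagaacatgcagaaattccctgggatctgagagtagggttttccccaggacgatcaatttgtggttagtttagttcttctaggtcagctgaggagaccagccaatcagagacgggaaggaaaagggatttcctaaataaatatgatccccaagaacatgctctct
Cxcl2: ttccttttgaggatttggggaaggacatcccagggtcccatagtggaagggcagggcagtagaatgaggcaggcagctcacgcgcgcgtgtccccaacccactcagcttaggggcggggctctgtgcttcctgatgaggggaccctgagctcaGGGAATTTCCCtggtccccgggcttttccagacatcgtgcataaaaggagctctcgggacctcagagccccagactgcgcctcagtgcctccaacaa
Cxcl13: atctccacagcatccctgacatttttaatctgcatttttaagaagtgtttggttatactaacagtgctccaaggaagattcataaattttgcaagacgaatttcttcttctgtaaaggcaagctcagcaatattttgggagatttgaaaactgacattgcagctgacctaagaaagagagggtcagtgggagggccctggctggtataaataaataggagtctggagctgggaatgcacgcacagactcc

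Cxcl10 held an ISRE match at 213 to 204 bases before its start. It held an NF-kappaB match at 159 to 150 bases and overlapping NF-kappaB matches between 104 and 94 bases before the start. Cxcl2 held overlapping NF-kappaB matches on both strands between 97 and 87 bases before its start and no match to the other motifs. These letters were not found in the windows of Cxcl9, Cxcl13 and Cxcl12. Of 32851 windows of the same length, 7.25% held an NF-kappaB match, 2.98% an ISRE match and 7.02% a GAS match. The windows describe sequence only, since the study measured no binding.

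**Figure D1:**
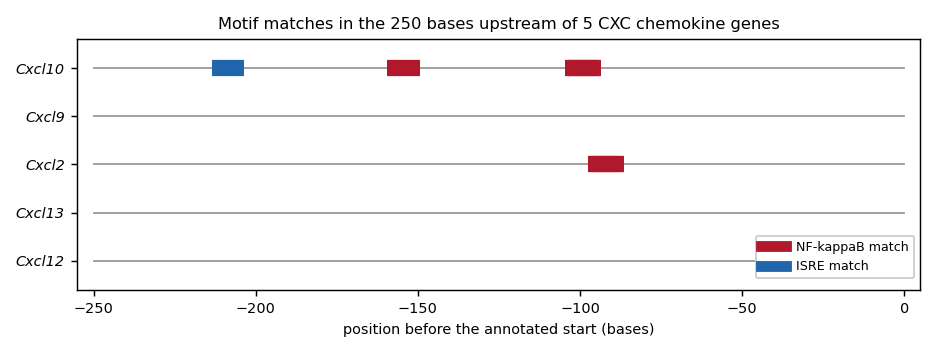
Matches to the NF-kappaB and ISRE motifs (coloured blocks) along the 250 bases upstream of 5 CXC chemokine genes, with the horizontal axis in bases before the annotated start. Matches lie in the windows of Cxcl10 and Cxcl2, and none of the 3 motifs searched was found in those of Cxcl9, Cxcl13 and Cxcl12.

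Most CXC chemokines were higher in macrophages than in normal microglia, and 4 of them were higher in tumour than in normal microglia. In differentiated macrophages against normal microglia, 6 of 7 rose and 0 fell, where 24.7% of all genes rose and 8.02% fell. In undifferentiated macrophages against normal microglia, 6 of 7 rose and 0 fell, where 21.8% of all genes rose and 6.18% fell. Set against tumour microglia, differentiated macrophages had 4 of 7 higher and 1 lower, with 37% of all genes higher and 6.35% lower. Undifferentiated macrophages also had 4 higher and 1 lower against tumour microglia, with 36.7% of all genes higher and 5.19% lower. In tumour against normal microglia, 4 of 7 rose and 0 fell, where 4.66% of all genes rose and 12% fell. The share of members higher in macrophages than in tumour microglia is to be read against these high backgrounds, and it was 2 of 7 in each macrophage population once library medians were subtracted. The comparisons share groups and are not independent of each other.

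The whole table shifted between populations, which bears on each of these counts. Library medians averaged 0.290 ± 0.172 in differentiated macrophages, 0.289 ± 0.116 in undifferentiated macrophages, -0.331 ± 0.197 in tumour microglia and -0.142 ± 0.185 in normal microglia (SD, n = 8 each). The median fitted difference over all genes was 0.65 for differentiated and 0.71 for undifferentiated macrophages against tumour microglia, 0.53 and 0.57 against normal microglia, and -0.25 for tumour against normal microglia. The medians of the 7 chemokines were 1.43, 1.47, 2.57, 2.74 and 1.15 in the same order. After each library's median was subtracted, 3486 genes rose and 3385 fell in differentiated macrophages against tumour microglia, in place of 6510 and 1116. The split became 2934 and 2862 in place of 6448 and 913 for undifferentiated macrophages against tumour microglia, 1843 and 2300 in place of 4346 and 1411 for differentiated macrophages against normal microglia, 1373 and 1860 in place of 3838 and 1087 for undifferentiated macrophages against normal microglia, and 1358 and 1336 in place of 820 and 2116 for tumour against normal microglia. Of the 26 chemokine calls in the 6 comparisons, 19 held after this step and none changed direction. Without the 9 libraries that kept little variation, 22 of the 26 held in a fit with no terms for the removed directions. None held with those terms, which left 6 residual degrees of freedom. The 4 members called higher in tumour against normal microglia became 1 without normal library 1 or 18, and 2 without normal library 2 or 10 or tumour library 27 or 30.

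**Figure D2:**
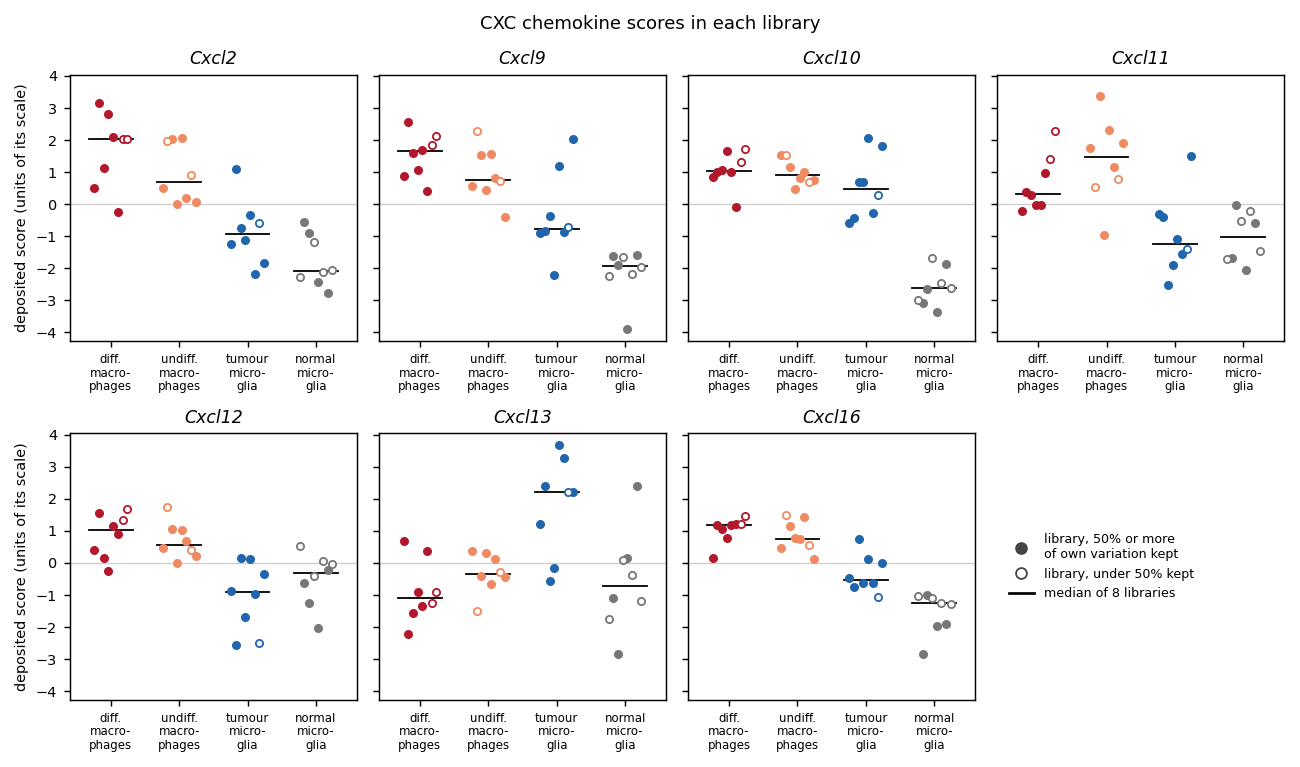
Deposited scores (vertical axis, units of the deposited scale) of the 7 CXC chemokines in each of 32 libraries, by population; bars are medians of 8 libraries and open circles mark the 9 libraries that kept under 50% of their own variation. Normal microglia lie lowest for Cxcl10, Cxcl9, Cxcl2 and Cxcl16, and tumour microglia lie highest for Cxcl13.

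Among the interferon-induced Cxcr3 ligands, Cxcl10 separated all 3 tumour populations from normal microglia. Its scores ran from -0.09 over a median of 1.03 to 1.73 in differentiated macrophages, from 0.48 over 0.92 to 1.55 in undifferentiated macrophages, from -0.59 over 0.48 to 2.05 in tumour microglia and from -3.36 over -2.63 to -1.69 in normal microglia. The 3 tumour populations overlapped each other, and no library of theirs overlapped normal microglia. Cxcl10 rose by 3.18 ± 0.42 in tumour against normal microglia (adjusted p = 8.3e-05), a difference at the 99.9th percentile of all genes. It rose by 3.64 ± 0.42 in differentiated macrophages (adjusted p = 3e-06) and by 3.82 ± 0.45 in undifferentiated macrophages (adjusted p = 3.7e-06) against normal microglia. These 3 calls held in every fit that left out 1 library. Differentiated and undifferentiated macrophages differed from tumour microglia by 0.46 ± 0.44 and 0.64 ± 0.46 (adjusted p = 0.42 and 0.27), with 95% intervals from -0.44 to 1.36 and from -0.30 to 1.58; both values were below 0 with the median of each library subtracted (-0.21 and -0.08). In the RefSeq annotation Cxcl10 and Cxcl11 both overlap Art3, and the labels do not state whether reads were counted by strand, so a contribution from that gene's reads was not tested.

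Cxcl9 had its highest median in differentiated macrophages, followed by undifferentiated macrophages, tumour microglia and normal microglia, and of the neighbours in this order only tumour and normal microglia were called apart. Scores ran from 0.41 over a median of 1.65 to 2.57 in differentiated macrophages, from -0.40 over 0.77 to 2.27 in undifferentiated macrophages, from -2.20 over -0.76 to 2.03 in tumour microglia and from -3.90 over -1.94 to -1.59 in normal microglia. Both macrophage populations lay above every normal library, while tumour microglia overlapped all other populations and had their 2 highest scores in libraries 30 and 19, which also had the 2 highest Cxcl10 scores. Cxcl9 rose by 3.75 ± 0.55 in differentiated macrophages (adjusted p = 4.4e-05) and by 3.10 ± 0.59 in undifferentiated macrophages (adjusted p = 0.00064) against normal microglia. It was higher by 2.03 ± 0.56 in differentiated macrophages than in tumour microglia (adjusted p = 0.0058), a call lost with library medians subtracted (1.37, adjusted p = 0.051), without differentiated library 28 (1.81, adjusted p = 0.093) and without undifferentiated library 8 (1.36, adjusted p = 0.1). The same difference for undifferentiated macrophages was 1.39 ± 0.59 and was not called (adjusted p = 0.062). It passed with no terms for the removed directions (1.28, adjusted p = 0.023), with library weights (1.84, adjusted p = 0.025) and without any 1 of normal libraries 10, 17 and 25, tumour libraries 19 and 30 and undifferentiated libraries 29 and 32, with values from 1.44 to 1.97.

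The rise of Cxcl9 in tumour against normal microglia was 1.71 ± 0.54 (adjusted p = 0.034) and depended on single libraries. It was lost without any 1 of normal libraries 1, 2, 10, 17 and 18 and of tumour libraries 19, 27 and 30, with differences from 1.04 without normal library 10 to 1.84 without normal library 1. It was also lost with library weights (1.18, adjusted p = 0.37) and without the 9 libraries that kept little variation, in a fit with no terms for the removed directions (1.80, adjusted p = 0.23).

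Cxcl11, the transcript of the RefSeq pseudogene, had its highest median in undifferentiated macrophages. Its scores ran from -0.21 over a median of 0.33 to 2.30 in differentiated macrophages, from -0.97 over 1.46 to 3.36 in undifferentiated macrophages, from -2.53 over -1.24 to 1.50 in tumour microglia and from -2.06 over -1.03 to -0.02 in normal microglia. Every pair of populations overlapped. Cxcl11 rose by 2.60 ± 0.60 in undifferentiated macrophages against tumour microglia (adjusted p = 0.0016) and by 2.79 ± 0.59 against normal microglia (adjusted p = 0.0019). Without differentiated macrophage library 31 these became 1.60 (adjusted p = 0.055) and 1.73 (adjusted p = 0.068), and without normal library 2 the second became 2.44 (adjusted p = 0.055). The fitted difference from tumour microglia turned negative, and was not called, without the 9 libraries that kept little variation (-0.29, adjusted p = 0.91) and in Pep3/CD45.1 recipients alone (-1.72, adjusted p = 0.78). The deposited means in Pep3/CD45.1 recipients kept the direction of the main fit, at 0.66 in undifferentiated macrophages and -0.59 in tumour microglia. The highest score among differentiated macrophages was in library 31, which enters both contrasts only through the shared fit. In differentiated macrophages Cxcl11 rose by 1.53 ± 0.56 against normal microglia (adjusted p = 0.039). That call was lost with library medians subtracted (1.11, adjusted p = 0.13) and without any 1 of normal libraries 1, 2, 10, 17 and 26, differentiated libraries 4, 7, 12, 20, 23, 28 and 31, and undifferentiated libraries 8 and 29, with values from 0.81 to 1.70. It was lost as well with library weights (1.02, adjusted p = 0.36), and without the 9 libraries and the terms for removed directions (1.52, adjusted p = 0.13). The fitted value turned negative without the 9 libraries with those terms kept (-1.05, adjusted p = 0.88) and in WT recipients alone (-1.39, adjusted p = 0.74). The deposited means for WT kept the direction of the main fit, at 0.37 in differentiated macrophages and -1.09 in normal microglia. Differentiated macrophages differed from tumour microglia by 1.34 ± 0.57 (adjusted p = 0.062), which passed with no terms for the removed directions (1.60, adjusted p = 0.0071) and without tumour library 3 or 30 or differentiated library 15 (1.49 to 1.76), and tumour from normal microglia by 0.19 ± 0.55 (adjusted p = 0.84, 95% interval from -0.95 to 1.33).

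Cxcl2, the neutrophil-attracting ligand of Cxcr2 and the only ELR chemokine of the 7, was high in macrophages. Scores ran from -0.23 over a median of 2.04 to 3.14 in differentiated macrophages, from 0.01 over 0.71 to 2.05 in undifferentiated macrophages, from -2.17 over -0.93 to 1.09 in tumour microglia and from -2.77 over -2.10 to -0.56 in normal microglia. Neither macrophage population overlapped normal microglia, and both overlapped tumour microglia, whose library 6 at 1.09 lay apart from a second highest score of -0.32. Cxcl2 rose by 3.61 ± 0.53 in differentiated macrophages (adjusted p = 4.7e-05) and by 2.74 ± 0.57 in undifferentiated macrophages (adjusted p = 0.0015) against normal microglia. Against tumour microglia it rose by 2.83 ± 0.55 in differentiated macrophages (adjusted p = 0.00034), at the 98.8th percentile of all genes, and by 1.96 ± 0.57 in undifferentiated macrophages (adjusted p = 0.0086). These 4 calls held in every fit that left out 1 library, and the last was lost with library medians subtracted (1.24, adjusted p = 0.11). Tumour and normal microglia differed by 0.78 ± 0.53 (adjusted p = 0.33, 95% interval from -0.31 to 1.87).

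Neutrophils also make Cxcl2. None of the 5 neutrophil markers listed, S100a8, S100a9, Ly6g, Mpo and Camp, had a row, so their part in the result was not tested.

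Cxcl16, the membrane-bound ligand of Cxcr6, had the tightest scores of the 7 genes in differentiated macrophages. They ran from 0.15 over a median of 1.20 to 1.45 in differentiated macrophages, from 0.11 over 0.76 to 1.49 in undifferentiated macrophages, from -1.06 over -0.54 to 0.76 in tumour microglia and from -2.83 over -1.26 to -1.01 in normal microglia. Macrophages did not overlap normal microglia, and tumour microglia overlapped both sides. The gene rose by 2.57 ± 0.34 in differentiated macrophages (adjusted p = 1.2e-05) and by 2.61 ± 0.36 in undifferentiated macrophages (adjusted p = 2.4e-05) against normal microglia, and both calls held without any 1 library. Against tumour microglia it rose by 1.43 ± 0.35 in differentiated macrophages (adjusted p = 0.0022) and by 1.47 ± 0.36 in undifferentiated macrophages (adjusted p = 0.0028). These values sat at the 71.7th and 71.9th percentiles of all genes, and neither call held with library medians subtracted (0.76, adjusted p = 0.065, and 0.74, adjusted p = 0.091).

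In tumour against normal microglia Cxcl16 rose by 1.15 ± 0.34 (adjusted p = 0.022). The call was lost without any 1 of normal libraries 1, 2, 10 and 18 and tumour libraries 11 and 30, with values from 0.83 without normal library 2 to 1.78 without normal library 1. It held at 2.05 (adjusted p = 0.015) without the 9 libraries that kept little variation and with no terms for the removed directions. Cxcl16 overlaps Zmynd15 in the RefSeq annotation, and without knowledge of strand in the counting its reads cannot be told apart from those of that gene. Zmynd15 has a row of its own, with means of 0.83 in differentiated macrophages, 0.78 in undifferentiated macrophages, -0.23 in tumour microglia and -1.38 in normal microglia. It rose by 2.20 ± 0.54 in differentiated and by 2.35 ± 0.58 in undifferentiated macrophages against normal microglia (adjusted p = 0.0044 and 0.0053) and was not called in the other 4 comparisons, and its part in the Cxcl16 result was not tested.

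Cxcl12, the ligand of Cxcr4, rose in macrophages against tumour microglia, together with a large part of the table. Its scores ran from -0.26 over a median of 1.02 to 1.67 in differentiated macrophages, from 0.01 over 0.57 to 1.75 in undifferentiated macrophages, from -2.55 over -0.91 to 0.16 in tumour microglia and from -2.03 over -0.31 to 0.52 in normal microglia. All groups overlapped. The rise against tumour microglia was 2.23 ± 0.44 in differentiated macrophages (adjusted p = 0.00043) and 2.10 ± 0.46 in undifferentiated macrophages (adjusted p = 0.0011), and both calls held without any 1 library and with library medians subtracted (1.57 and 1.38). Against normal microglia the differences were 1.39 ± 0.43 in differentiated macrophages (adjusted p = 0.018) and 1.26 ± 0.46 in undifferentiated macrophages (adjusted p = 0.044). The first was lost with library medians subtracted (0.97, adjusted p = 0.079) and without any 1 of normal libraries 2 and 10, differentiated libraries 28 and 31 and undifferentiated library 8 (1.04 to 1.22). The second was lost with library medians subtracted (0.78, adjusted p = 0.2) and in 18 of 32 fits that left out 1 library, those of normal libraries 2, 9, 10 and 17, tumour libraries 14, 19 and 22, differentiated libraries 4, 7, 28 and 31 and undifferentiated libraries 5, 8, 13, 16, 21, 24 and 32, with values from 0.62 to 1.35. With library weights neither passed (adjusted p = 0.058 in differentiated and 0.068 in undifferentiated macrophages). Tumour and normal microglia differed by -0.84 ± 0.43 and were not called apart (adjusted p = 0.18), except without normal library 17 (-1.14, adjusted p = 0.041).

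Cxcl12 is made mainly by stromal, endothelial and glial cells, whose markers are described here. In differentiated macrophages against tumour microglia, 4 of 4 pericyte and fibroblast markers (Pdgfrb, Col1a2, Dcn and Rgs5), 4 of 4 astrocyte markers (Gfap, Aqp4, Slc1a2 and Gja1) and 3 of 4 endothelial markers were higher. For undifferentiated macrophages these counts were 4 of 4, 4 of 4 and 2 of 4. Of all genes, 37% and 36.7% were higher in these comparisons. Against normal microglia the counts were 0 of 4, 2 of 4 and 1 of 4 in differentiated macrophages, beside 24.7% of all genes. In undifferentiated macrophages they were 1 of 4, 1 of 4 and 1 of 4, beside 21.8%. Of 2 oligodendrocyte markers, 0 were higher in any of these comparisons. The mean score of the 4 astrocyte markers ran from 0.04 to 1.23 in differentiated macrophages, from 0.33 to 1.42 in undifferentiated macrophages, from -1.94 to -0.03 in tumour microglia and from -1.31 to 0.50 in normal microglia. That of the 4 pericyte and fibroblast markers ran from -0.22 to 1.14, from 0.14 to 0.93, from -1.61 to 0.06 and from -1.81 to 0.64 in the same order, and that of the 4 endothelial markers from -0.24 to 1.09, from 0.16 to 1.16, from -1.48 to -0.33 and from -1.18 to 0.10. A centred score gives no level, so whether such RNA was abundant in any library is unknown, and its part in the Cxcl12 result was not tested.

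Cxcl13, the B cell chemokine and ligand of Cxcr5, was the one member with its highest median in tumour microglia. Its scores ran from -2.23 over a median of -1.08 to 0.68 in differentiated macrophages, from -1.49 over -0.34 to 0.36 in undifferentiated macrophages, from -0.57 over 2.21 to 3.67 in tumour microglia and from -2.84 over -0.73 to 2.40 in normal microglia. In tumour microglia 6 of 8 libraries lay above every macrophage library, while libraries 11 and 14 lay within the macrophage range. Normal library 25, at 2.40, lay apart from the next normal score of 0.14. Cxcl13 fell by 3.06 ± 0.71 in differentiated macrophages against tumour microglia (adjusted p = 0.0016), a difference at the 0.136th percentile of all genes, and this call held without any 1 library. It fell by 2.28 ± 0.75 in undifferentiated macrophages against tumour microglia (adjusted p = 0.018). That call was lost without differentiated library 28 (-2.17, adjusted p = 0.056), differentiated library 31 (-2.12, adjusted p = 0.092) or undifferentiated library 8 (-2.09, adjusted p = 0.053), with library weights (-1.93, adjusted p = 0.092), and without the 9 libraries and the terms for removed directions (-1.81, adjusted p = 0.073). In WT recipients alone the fitted value, with 3 residual degrees of freedom, was positive (0.15, adjusted p = 0.99). The deposited means there kept the direction of the main fit, at -0.25 in undifferentiated macrophages and 1.63 in tumour microglia. With library medians subtracted both differences were larger, at -3.73 and -3.00.

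Tumour microglia had Cxcl13 higher than normal microglia by 2.66 ± 0.69 (adjusted p = 0.012), at the 99.6th percentile. The call was lost without any 1 of normal libraries 1 (2.30, adjusted p = 0.27), 18 (2.95, adjusted p = 0.058) and 26 (1.99, adjusted p = 0.17) or tumour library 27 (2.89, adjusted p = 0.052), and with library weights (2.58, adjusted p = 0.14). Without the 9 libraries that kept little variation, and with no terms for the removed directions, it was 2.28 (adjusted p = 0.27). Macrophages and normal microglia were not called apart: the differences were -0.40 ± 0.69 in differentiated and 0.38 ± 0.74 in undifferentiated macrophages (adjusted p = 0.67 and 0.72), with 95% intervals from -1.84 to 1.03 and from -1.15 to 1.91. Cd79a and Ms4a1, the 2 of 3 B cell markers with a row, were both higher in each macrophage population than in tumour microglia. In those comparisons 37% and 36.7% of all genes were higher. Neither marker was called in tumour against normal microglia. A link of these markers to the Cxcl13 result was not tested.

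**Figure D3:**
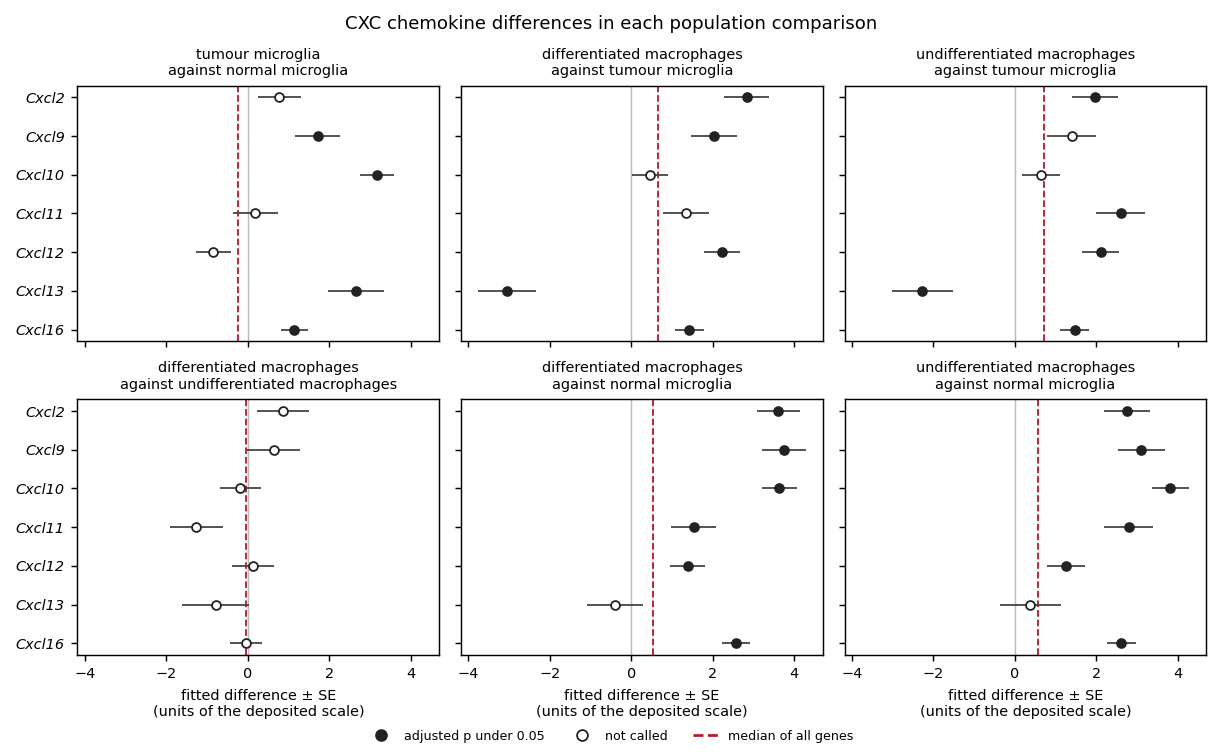
Fitted differences ± SE (horizontal axis, units of the deposited scale) of the 7 CXC chemokines in 6 comparisons, with filled circles at an adjusted p below 0.05 and a dashed line at the median difference of all genes. Cxcl13 is the only member below 0 among the called values, and no member was called between the macrophage populations.

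Differentiated and undifferentiated macrophages were not told apart by any CXC chemokine. None of the 7 was called by limma and none had an unadjusted p below 0.05. Over all genes 0 were called higher (0%) and 2 lower (0.0114%), and 491 had an unadjusted p below 0.05. The widest gaps were 0.87 ± 0.63 for Cxcl2, with a 95% interval from -0.43 to 2.17, and -1.26 ± 0.66 for Cxcl11, with an interval from -2.62 to 0.10. Intervals of this width leave differences of 1 unit or more undetected.

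The tumour populations could be compared within an experiment, since experiments 3 and 4 each held 4 libraries of each. In experiment 3 the macrophages came from WT recipients and the tumour microglia from Pep3/CD45.1 recipients, and in experiment 4 the reverse. Recipient strain and population therefore change together in each macrophage against microglia difference within an experiment. In the chimeras the labels name the other strain as donor, and the strain of the sorted cells themselves was not tested. Centring was by recipient strain, so a difference by the strain of the cells can remain. The recipient strain difference averaged over all populations is not in the scores. A strain difference particular to a population can remain and cannot be told apart from population there. Cxcl13 in differentiated macrophages differed from tumour microglia by -2.81 in experiment 3 and by -2.55 in experiment 4 in the deposited means. Cxcl2 lay above by 2.45 and 2.67, Cxcl12 by 2.15 and 1.73 and Cxcl16 by 1.41 and 1.32. In undifferentiated macrophages against tumour microglia the Cxcl11 means differed by 2.64 and 1.99 and those of Cxcl13 by -2.19 and -2.01. Every called difference between macrophages and tumour microglia had the same sign in both experiments. In each experiment these macrophages and microglia came from different recipient strains. The scores kept 37.8% of the direction that separates experiment 3 from experiment 4, and genes were centred within each recipient strain. The likeness of experiments 3 and 4 is therefore partly set by the processing and is no replication. Cxcl11 in differentiated against undifferentiated macrophages, which was not called, had means that differed by -1.68 in experiment 3 and by 0.24 in experiment 4. The difference between Pep3/CD45.1 and WT recipients in each of the 6 contrasts was tested for the 7 genes, and 0 of the 42 tests passed. Over the whole table, 884 genes passed for tumour against normal microglia and 79 for differentiated macrophages against tumour microglia. SEs of the 42 differences ran from 0.72 to 2.19 units, so large strain differences can go undetected. Cxcl12 in tumour against normal microglia gave -3.92 ± 1.36 (limma adjusted p = 0.091). The deposited means of Cxcl12 lay closer together than this fitted value. They were -0.77 in tumour and -0.75 in normal microglia for WT, and -1.38 and -0.25 for Pep3/CD45.1. Of the Pep3/CD45.1 normal libraries, 10, 18 and 26 kept 8.6%, 23.9% and 22.8% of their own variation.

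Of the receptors for these ligands, 2 of 5 rose in each macrophage population against tumour microglia, 4 of 5 rose in each against normal microglia, and 0 were called between tumour and normal microglia. Of all genes, 37% and 36.7% rose in differentiated and undifferentiated macrophages against tumour microglia, so the first count is near the background, and 24.7% and 21.8% rose against normal microglia. The list held 8 CXC receptors, of which 5 had a row; Cxcr3, the receptor of Cxcl9, Cxcl10 and Cxcl11, had none. Cxcr4, the receptor of Cxcl12, scored from 0.13 over a median of 2.03 to 2.58 in differentiated macrophages, from 0.32 over 1.31 to 3.21 in undifferentiated macrophages, from -3.42 over -1.82 to -0.75 in tumour microglia and from -2.17 over -1.35 to -0.60 in normal microglia. Every macrophage library lay above every microglia library. Cxcr4 rose by 3.76 ± 0.49 in differentiated and by 4.03 ± 0.51 in undifferentiated macrophages against tumour microglia (adjusted p = 1.5e-05 and 1.4e-05), and by 2.90 ± 0.48 and 3.17 ± 0.51 against normal microglia (adjusted p = 0.00015 and 0.00013). Cxcr2, the receptor of Cxcl2, rose by 1.44 ± 0.44 in differentiated and by 1.69 ± 0.46 in undifferentiated macrophages against tumour microglia (adjusted p = 0.011 and 0.0056). Against normal microglia Cxcr2, Cxcr4, Cxcr6 and Cxcr7 rose in both macrophage populations. Cxcr6, the receptor of Cxcl16, differed from tumour microglia by 0.74 ± 0.51 in differentiated and 0.45 ± 0.53 in undifferentiated macrophages (adjusted p = 0.25 and 0.53). Cxcr5, the receptor of Cxcl13, was called in none of the 6 comparisons, and its difference between tumour and normal microglia was -0.99 ± 0.40 (adjusted p = 0.088).

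**Figure D4:**
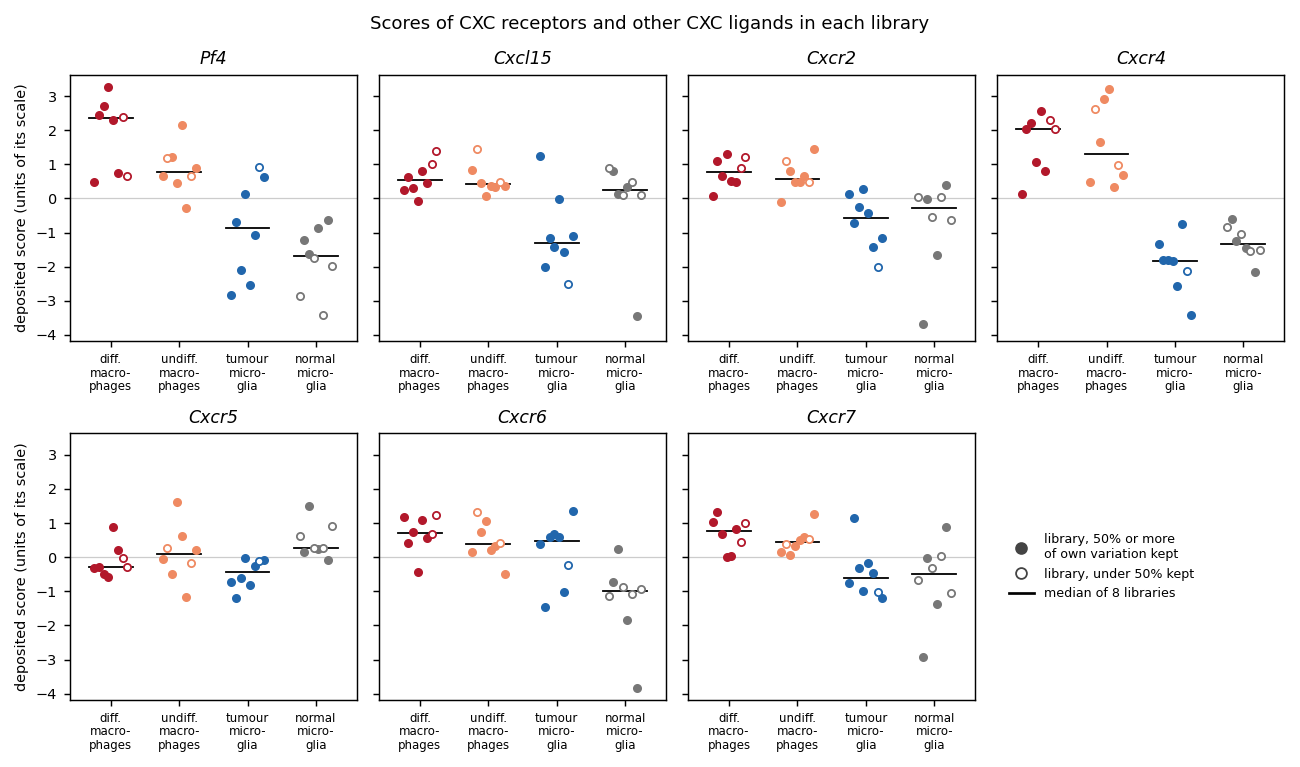
Deposited scores (vertical axis, units of the deposited scale) of 2 further CXC ligands and 5 CXC receptors in each library, by population; bars are medians of 8 libraries and open circles mark libraries that kept under 50% of their own variation. Cxcr4 separates both macrophage populations from both microglia populations, and Pf4 has its highest median in differentiated macrophages.

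Of 6 other CXC ligands listed, Pf4 and Cxcl15 had a row. Pf4, platelet factor 4, which is also expressed by tissue macrophages, scored from 0.47 over a median of 2.35 to 3.28 in differentiated macrophages, from -0.29 over 0.77 to 2.16 in undifferentiated macrophages, from -2.85 over -0.87 to 0.91 in tumour microglia and from -3.42 over -1.68 to -0.64 in normal microglia. It rose by 2.68 ± 0.57 in differentiated (adjusted p = 0.00081) and by 1.55 ± 0.60 in undifferentiated macrophages (adjusted p = 0.042) against tumour microglia, and by 3.78 ± 0.56 and 2.65 ± 0.59 against normal microglia (adjusted p = 4.7e-05 and 0.0028). Cxcl15, a chemokine known from mouse lung epithelium, fell by 1.36 ± 0.45 in tumour against normal microglia (adjusted p = 0.039) and was higher by 2.06 ± 0.46 and 1.96 ± 0.48 in differentiated and undifferentiated macrophages than in tumour microglia (adjusted p = 0.0012 and 0.0028).

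Interferon signalling genes act upstream of Cxcl9 and Cxcl10. The counts below stand beside 4.66% of all genes higher and 12% lower in tumour against normal microglia. Against tumour microglia, 37% were higher and 6.35% lower in differentiated macrophages, and 36.7% and 5.19% in undifferentiated macrophages. Against normal microglia these shares were 24.7% and 8.02% in differentiated and 21.8% and 6.18% in undifferentiated macrophages. Of 10 interferon signalling genes described, 2 rose and 0 fell in tumour against normal microglia. These were the transcription factors Stat2, up by 1.74 ± 0.33 (adjusted p = 0.0016), and Irf9, up by 1.37 ± 0.38 (adjusted p = 0.017). In differentiated macrophages against tumour microglia 0 rose and 2 fell, the interferon gamma receptor chain Ifngr1, which fell by 1.11 ± 0.40, and the kinase Jak1, which fell by 0.89 ± 0.33 (adjusted p = 0.03 each). In undifferentiated macrophages against tumour microglia 0 rose and 1 fell, again Ifngr1. Against normal microglia 2 rose and 1 fell in differentiated macrophages, and 3 rose and 1 fell in undifferentiated macrophages, with Stat2 and Irf1 higher and Ifngr1 lower in both. Of 8 NF-kappaB genes, 2 rose and 1 fell in tumour against normal microglia: the regulators Nfkbiz by 1.32 ± 0.45 (adjusted p = 0.049) and Tnfaip3 by 1.35 ± 0.39 (adjusted p = 0.02) rose, and the subunit Rela fell by 1.08 ± 0.33 (adjusted p = 0.028). None of the 8 rose in macrophages against tumour microglia, and Nfkb1 fell by 1.00 ± 0.40 in differentiated macrophages (adjusted p = 0.046). In differentiated macrophages against normal microglia 2 rose (Rel and Tnfaip3) and 2 fell (Nfkb1 and Rela). In undifferentiated macrophages against normal microglia 3 rose (Relb, Nfkbiz and Tnfaip3) and 1 fell (Rela). Among proteases that cut CXC chemokines, Dpp4, which trims Cxcl10 and Cxcl12, rose by 2.23 ± 0.55 and 2.37 ± 0.57 in differentiated and undifferentiated macrophages against tumour microglia (adjusted p = 0.0023 each). The sheddases of Cxcl16, Adam10 and Adam17, were not called in those comparisons, and Adam10 was lower in undifferentiated macrophages than in normal microglia. The medians over the genes described from each list were 0.28 for interferon signalling and 0.46 for NF-kappaB in tumour against normal microglia, beside -0.25 for all genes.

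The labels of the populations were checked on their markers. All 5 microglia markers described (Tmem119, P2ry12, Sall1, Siglech and Fcrls) were lower, and all 5 markers of blood-derived macrophages (Itga4, Ccr2, Ly6c2, Tgfbi and Runx3) higher, in both macrophage populations than in tumour microglia. Of 3 dendritic cell markers with a row, 2 were higher in differentiated macrophages than in tumour microglia and 1 in undifferentiated macrophages. Neuronal markers were higher in both macrophage populations than in tumour microglia for 2 of 3 genes, and oligodendrocyte markers for 0 of 2. These counts stand beside 37% and 36.7% of all genes higher in the same comparisons. Against normal microglia all 3 dendritic cell markers (Zbtb46, Xcr1 and Ccr7) were higher in both macrophage populations. In tumour against normal microglia Xcr1 was higher and the microglia markers Tmem119 and Fcrls were lower, and none of the 5 markers of blood-derived macrophages was called. Cd8a, Tek, Col1a2, Slc1a2 and Snap25, markers of other cell types, were also lower there, beside 12% of all genes. Between the macrophage populations, Ly6c2 was lower in differentiated macrophages, and none of the 5 microglia markers was called. The part of these markers in the chemokine results was not tested. The T cell marker Cd8a, the one of 5 T and NK cell markers with a row, was higher in both macrophage populations than in tumour microglia, and its part in the results was not tested.

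Likeness to other genes was measured by Pearson's r of deposited scores over all 32 libraries, which share their populations and removed directions, and is a description only. Cxcl10 was most like Cd52 (r = 0.94), Cd300lf (0.94) and H2-K1 (0.93), and Cxcl9 most like BC006779 (0.91), Itgal (0.90) and Cfb (0.89). For Cxcl2 the nearest genes were Mtb (0.88), Mndal (0.87) and AI662270 (0.86), and for Cxcl16 they were Capn1 (0.93), Csrnp1 (0.92) and Lhx6 (0.91). Cxcl12 lay nearest to Pcdh17 (0.95), Exph5 (0.95) and Adam23 (0.94), and Cxcl11 nearest to 1200002N14Rik (0.87), Ptrh2 (0.86) and Creb5 (0.82). Cxcl13 had no close partner, with Cxx1a (0.70), Abhd11 (0.69) and Zfp746 (0.68) at the top. Among the members themselves, Cxcl9 and Cxcl10 had the highest r over all libraries (0.863), closely followed by Cxcl9 and Cxcl16 (0.859). Within population and recipient strain, Cxcl12 and Cxcl16 had the highest r (0.642), closely followed by Cxcl9 and Cxcl10 (0.638). Over all libraries Cxcl13 ran from -0.45 with Cxcl12 to 0.14 with Cxcl10.

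**Figure D5:**
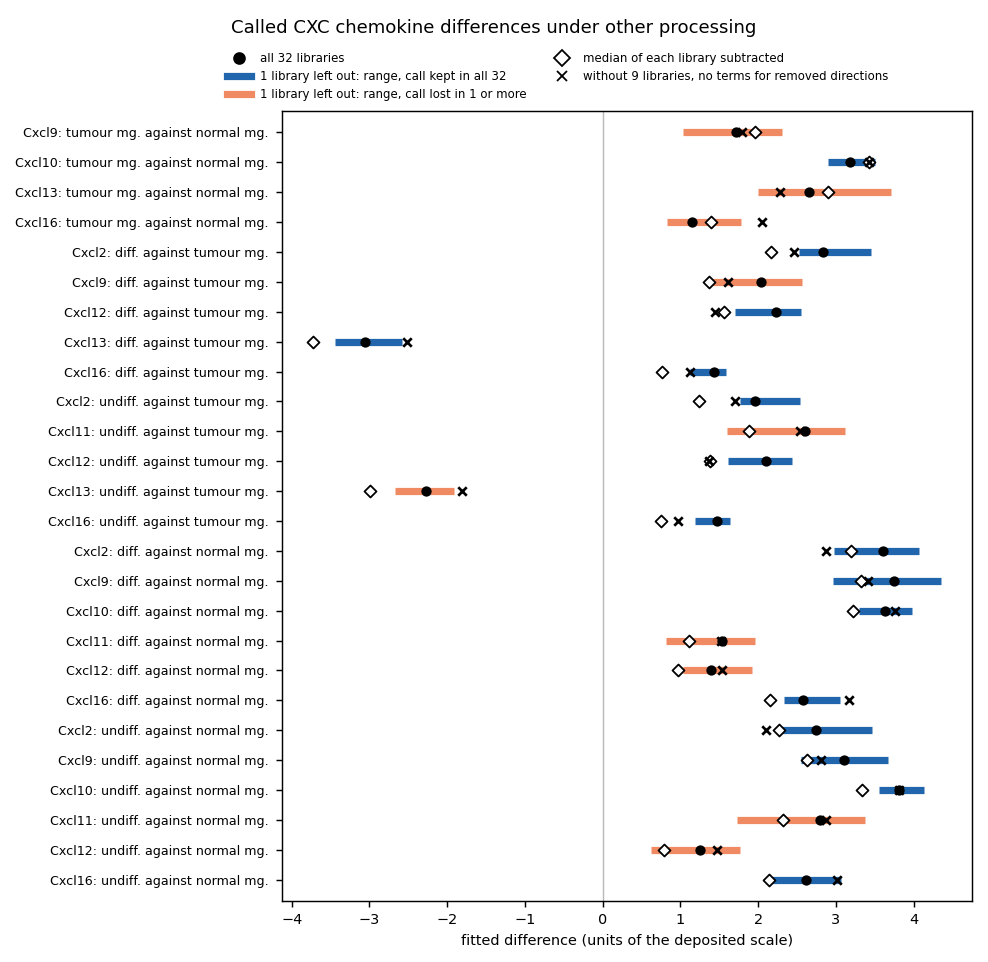
Each called chemokine difference (horizontal axis, units of the deposited scale) from all libraries (dots), its range over fits that left out 1 library (bars, orange where the call was lost in 1 or more), with library medians subtracted (diamonds) and without 9 libraries and no terms for the removed directions (crosses). Of 26 calls, 16 held in every fit that left out 1 library, and every value shown kept its sign.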

How the data were processed

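RNA-seq values of 32 libraries of sorted mouse brain cells were used as deposited. Per the labels' protocols, cDNA came from a SMART-Seq v4 kit for low RNA input, and per the submitters' processing notes FastQC, STAR 2.5.0a, RSEM 1.3.0 and build mm9 were used. The authors' deposited table is named as normalised counts but holds signed scores, with no stated scale or depth, so no count test, log or filter was applied; a trend fit on log2 values had been planned. Groups come from the labelled cell type. The limma 3.58.1 model in R 4.3.3 held population and recipient strain, their interaction and the 11 directions with no variation as covariates, with 15 residual degrees of freedom, robust empirical Bayes and two-sided p-values, adjusted by Benjamini-Hochberg over 17586 genes. It was tested on simulated data. The alternatives were other scalings, weights and subsets of libraries and each library left out. All members with a row are named, with listed pathway genes, markers and the 3 genes most like each member. Of the listed pathway genes and markers, 2 are not reported here and stay out of the lists' counts and medians. Members and lists were chosen with earlier results of these data known. Promoter sequences are RefSeq's on GRCm38.p6, a build other than the authors', and were used for sequence only.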

Additional observations from a re-analysis of the deposited data

Results flagged for a closer look

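Cxcl9 in normal microglia library 17 scored -3.90, with the next lowest of the 8 normal libraries at -2.24. The gap took 0.717 of the range of the group, above Dixon's critical value for 8 samples. It was the one of 28 groups (7 genes in 4 populations) in which a sample lay this far from the others, and chance alone flags about 1 in 20 groups. Without this library Cxcl9 differed by 1.35 between tumour and normal microglia (adjusted p = 0.061), in place of 1.71 (adjusted p = 0.034). The same library also had the lowest normal score of Cxcl10, Cxcl11 and Cxcl12.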

How the results depend on the processing

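Of 26 calls, 26 held with no terms for the removed directions and 26 without the robust option, 22 without the 9 libraries that kept little variation and no such terms, 20 with library weights and 19 with library medians subtracted. Fits with few residual degrees of freedom kept almost none: 0 without those 9 libraries (6 degrees of freedom), 0 in WT recipients, 1 in Pep3 recipients (Cxcl10 in undifferentiated macrophages against normal microglia) and 3 with the libraries of 2 populations (3 degrees of freedom each); over all genes, these subsets also called few or none, with 0 against 820 higher and 0 against 2116 lower for tumour against normal microglia in WT recipients. The fit with library weights called 208 higher and 537 lower there. Members called higher in tumour against normal microglia numbered 4, and 2 with weights, 2 without the 9 libraries and no terms, 1 with those 2 populations, 0 in the other small subsets and 1 to 4 with 1 library left out. With library medians subtracted, 2 were higher in differentiated and 2 in undifferentiated macrophages against tumour microglia. Cxcl13 in undifferentiated macrophages against tumour microglia was the 1 member called lower, with 0 under weights, 0 without the 9 libraries and no terms, and 0 to 1 with 1 library left out. Counts in the small subsets were 0 for the macrophage comparisons, except 2 higher in undifferentiated macrophages against normal microglia with those populations alone and 1 in Pep3 recipients. With 1 library left out, 0 to 1 members were lower in tumour against normal microglia, and 0 to 1 recipient tests passed.

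Signs that changed belonged to uncalled differences except 5 values: without the 9 libraries Cxcl11 was -1.05 in differentiated macrophages against normal microglia and -0.29 in undifferentiated macrophages against tumour microglia, in WT recipients Cxcl11 was -1.39 in differentiated macrophages against normal microglia and Cxcl13 0.15 in undifferentiated macrophages against tumour microglia, and in Pep3 recipients Cxcl11 was -1.72 in undifferentiated macrophages against tumour microglia. For the values from a single recipient strain, the deposited means kept the direction of the fit to all libraries. Uncalled differences that changed sign follow. Without terms: differentiated against undifferentiated macrophages, Cxcl10 0.066 and Cxcl16 0.19. With medians subtracted: Cxcl10 -0.21 and -0.081 in differentiated and undifferentiated macrophages against tumour microglia, Cxcl16 0.015 in differentiated against undifferentiated and Cxcl13 -0.095 in undifferentiated macrophages against normal microglia. With weights: Cxcl11 -0.090 in tumour against normal microglia and Cxcl13 0.014 in differentiated macrophages against normal microglia. Without the 9 libraries: against tumour microglia Cxcl10 -1.32 and Cxcl11 -1.85 in differentiated and Cxcl10 -0.98 in undifferentiated macrophages, Cxcl16 0.37 in differentiated against undifferentiated, and Cxcl13 0.026 in differentiated macrophages against normal microglia. Without the 9 libraries and terms: Cxcl12 0.10 in tumour against normal microglia and Cxcl16 0.15 in differentiated against undifferentiated. In WT recipients: Cxcl11 -2.31 and Cxcl12 0.87 in tumour against normal microglia, Cxcl12 -0.72 in differentiated against undifferentiated and Cxcl13 1.74 in differentiated macrophages against normal microglia. In Pep3 recipients: Cxcl2 -0.30 in tumour against normal microglia, Cxcl10 -0.47 and Cxcl11 -2.30 in differentiated and Cxcl10 -0.85 in undifferentiated macrophages against tumour microglia, and Cxcl10 0.38 and Cxcl16 0.43 in differentiated against undifferentiated. With the libraries of 2 populations: Cxcl10 -0.80 and -1.02 in differentiated and undifferentiated macrophages against tumour microglia, Cxcl16 0.080 in differentiated against undifferentiated and Cxcl13 1.18 in differentiated macrophages against normal microglia. With 1 library left out, Cxcl11 in tumour against normal microglia ran from -0.24 to 0.57, Cxcl10 and Cxcl16 in differentiated against undifferentiated macrophages from -0.37 to 0.11 and from -0.21 to 0.20, and Cxcl13 in differentiated and undifferentiated macrophages against normal microglia from -1.08 to 0.81 and from -0.25 to 1.22. The cause of these changes was not tested. No paired analysis was possible because the groups compared share no replicate number, and the labels do not say whether libraries with neighbouring numbers share an animal or a day. Depth is unknown, so what it limits cannot be given.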
